A study of Mus musculus with 19 samples.

Results

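Keratins are the intermediate filament proteins of epithelial cells, and the 47 keratin genes examined here are all those whose symbol is Krt followed by digits in both deposited tables, out of 23284 genes in each table. Each was measured by RNA-seq in renal grafts, in adult prostate and in mouse embryonic fibroblasts (MEFs). The prostate group held 6 samples (FS009 to FS014) of wild-type C57BL/6 prostate from mice aged 6 weeks. The MEF group held 6 samples (FS015 to FS020) from limbs of mid-gestation C57BL/6 embryos (E13.5) that carried one Nkx3-1tm2(LacZ)Mms allele. The MEFs were pooled from male and female littermates and sorted against blood, endothelial and EpCAM-positive cells. The graft group held 7 samples, in which C57BL/6 fibroblasts given the retroviral human factors OCT4, SOX2, KLF4 and c-MYC had become induced epithelial (iEpt) cells and were then grown with rat urogenital mesenchyme under the kidney capsule of nude mice supplied with testosterone. Some grafts also carried a set of lentiviral transcription factors (NAF) that included mouse Nkx3.1 and mouse Foxa1. Others held iEpt cells alone, and the sample labels do not say which graft is of which kind. The study names FS002, FS003, FS005, FS007 and FS008 as iEpt+NAF grafts but does not name FS022 and FS023, the remaining grafts. By the study's counts of each kind, FS022 and FS023 are the grafts of iEpt cells alone, without NAF. The named 5 stand in one table with prostate and MEFs. FS022 and FS023 stand in a second table that was normalized separately, so their values are given without a test. A graft is a mixture of the transplanted cells, rat mesenchyme and tissue of the host, and in such bulk samples fewer cells of a type and less RNA per cell cannot be told apart.

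A keratin filament is built from pairs of a type I and a type II chain, so a cell makes at least one chain of each type. Simple epithelia, such as the luminal cells of the prostate, use Krt8 and Krt18, often with Krt19 and Krt7. Basal cells of stratified and glandular epithelia use Krt5 and Krt14, and as cells of a stratified epithelium leave the basal layer they switch to other pairs, Krt1 and Krt10 in epidermis and Krt4 and Krt13 in the moist linings of the mouth and oesophagus. Hair shaft and inner root sheath keratins are made in the follicle.

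The 47 genes comprised 26 type I and 21 type II chains, and were divided into 6 simple, 4 basal, 14 suprabasal, 13 hair shaft, 8 inner root sheath and companion layer, and 2 other keratins. In the mouse assembly mm9 the type I genes lie on chromosome 11 and the type II genes on chromosome 15. Krt18 is the exception, a type I gene on chromosome 15 from 101858647 to 101862457, close to the type II gene Krt8 from 101827142 to 101834773. No position was found for Krt85 in the annotation used.

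Mouse RefSeq promoter sequences around the transcription start (assembly GRCm38.p6) were matched for 33 of the 47 keratins. The 30 bases from 45 to 16 before the start are shown for the partners Krt8 and Krt18, whose balance differed between prostate and grafts, for Krt7 and Krt20, the simple keratins with far higher levels in grafts, and for the epidermal keratin Krt10. Capitals mark TATAAA, the core of a TATA box.
Krt8 (chr15:102004358-102004387, minus strand): aggtaagaggcccttttccctcccctgggg
Krt18 (chr15:102028171-102028200, plus strand): gaggtccctacctcctcccgcggcgatata
Krt7 (chr15:101412358-101412387, plus strand): ccacctgtgtgcgctcagcctccgccccgc
Krt20 (chr11:99438169-99438198, minus strand): ggagtctcttgaactcTATAAAaggtcatc
Krt10 (chr11:99389380-99389409, minus strand): gagacacgccctctcagtaTATAAAggctc
The letters TATAAA stood within this window, on the strand of the gene, in 13 of 34 keratin promoters (38.2%) and in 2.1% of all 32851 promoters. Over the whole promoter sequence and on either strand, 17 of 34 keratin promoters held it, against 13.6% of all promoters. By class the window held it in 5 of 7 inner root sheath, 4 of 8 hair shaft, 3 of 11 suprabasal, 1 of 5 simple and 0 of 2 basal promoters. A match is a description of the sequence only.

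The values are log2 normalized read counts. The reads counted on genes, estimated from the spacing of the high values, were between 16767292 and 26152345 per first-table library, 6629665 in FS022 and 9662059 in FS023. The floor used here is the value that 3 reads give, which lay between 1.68 and 2.34 among first-table libraries, at 3.12 in FS022 and at 2.70 in FS023. It covers counting error only, and 0 reads gave -0.31 with an added scatter of 1.07 to 1.12 (SD), so single values near the floor are uncertain. The 6 MEF libraries formed 3 close pairs (FS015 with FS020, FS016 with FS019, FS017 with FS018), within which values differed by an SD of 0.055 to 0.074 against 0.255 to 0.305 in other MEF pairs. MEF tests may therefore rest on fewer than 6 independent cultures, and counts with the pairs averaged are in the closing section. Epithelial markers (Epcam, Cdh1, Cldn7, Cldn4, Esrp1) summed to 17862 to 39981 normalized reads in the 5 grafts, 23975 to 33173 in prostate and 18.6 to 125.9 in MEFs. The prostate secretory list (Pbsn, Sbp, Spink3, Msmb, Tgm4) summed to between 1426783 and 2838707 reads in prostate, to 919.7 to 5090.6 in the 5 grafts and to 153.0 to 4048.2 in MEFs, so that grafts and MEFs overlapped.

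More keratins were detected in each of the 5 first-table grafts than in any prostate sample. Counting a keratin as detected above the value of 10 reads, prostate samples had 14 to 17 of the 47 keratins, the 5 grafts 19 to 34, and MEFs 6 to 8. FS022 had 16 and FS023 had 22. How many genes of any kind were above 10 reads was not computed, so these counts are a description. Keratins took 0.203% to 0.309% of reads on genes in prostate (median 0.223%) and 0.185% to 0.736% in the 5 grafts (median 0.731%). The lowest graft was FS008, below all prostate samples. The median in MEFs was 0.004%. The map of levels shows simple and basal keratins in nearly every graft and prostate sample, and hair keratins mainly in graft FS002. No sample had more than 10 reads of 9 keratins, namely Krt24, Krt26, Krt28, Krt39, Krt40, Krt73, Krt74, Krt82 and Krt85.

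**Figure D1:**
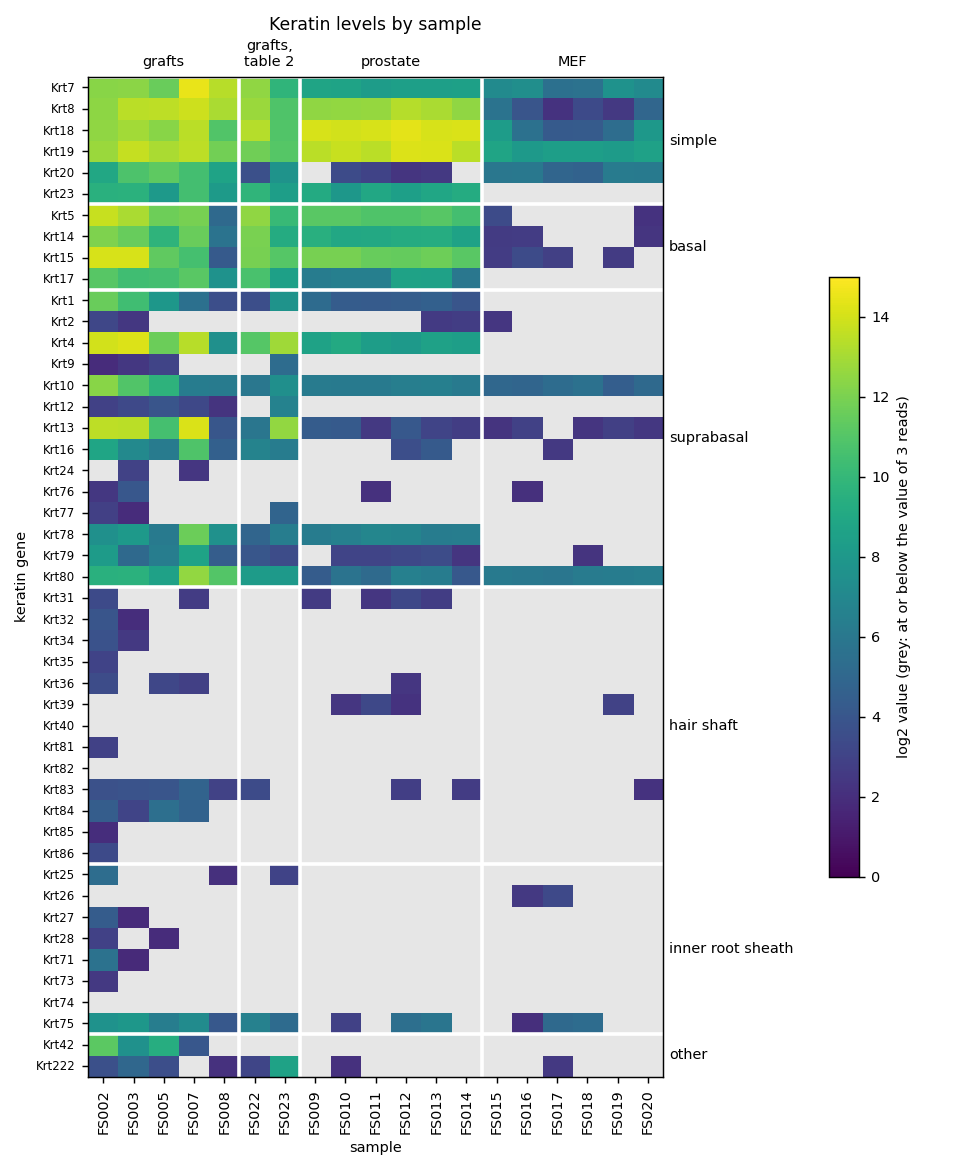
Log2 value of each of the 47 keratins (rows, by class) in each of the 19 samples (columns, by group), with grey where the value is at or below that of 3 reads. FS002 has the most keratins above 10 reads (34), and FS008 the fewest of the first-table grafts (19).

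The comparison of prostate with MEFs asks which keratins mark the normal organ. Prostate was tested against MEFs with limma over all genes whose linear mean reached 10, and a gene was called at an adjusted p under 0.05 and a log2 fold change of at least 1. Of 16 keratins that passed the filter, 13 were called higher in prostate and 1 lower, against 27.8% of all genes called higher, 20.5% lower and 48.3% either way. A keratin high in only one group passes the filter through that group, so these counts are a description. The median log2 fold change was 6.31 over these keratins (5.45 with 5 of them set to the bound that the floor allows) and 0.171 over all genes tested.

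The simple keratins Krt8, Krt18 and Krt19, which fill luminal cells, had the highest levels in prostate. Per transcript length, Krt18 made up 38.05% to 49.8% of the keratin signal in the 6 prostate samples, Krt19 26.1% to 34.4% and Krt8 11.53% to 15.7%, ranges that did not overlap. In MEFs Krt19 led with 41.2% to 64.1%.

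Among single genes, Krt8 had values in prostate from 12.49 to 13.34 (median 12.62) and in MEFs from 2.23 to 5.71 (median 3.66), a log2 difference of 8.98 (limma adjusted p = 3.5e-09). Krt18 ranged from 13.95 to 14.37 (median 14.11) in prostate and from 4.23 to 8.29 (median 5.48) in MEFs (difference 8.16, adjusted p = 7.83e-08). The MEF values of Krt18 followed the library pairs, with 8.29 in FS015 and 8.02 in FS020, and 4.23 in FS017 and 4.32 in FS018. Prostate secretory transcripts were estimated at 0.180% (FS015), 0.054% (FS016), 0.070% (FS017) and 0.054% (FS018) of the prostate level in 4 MEF libraries. The estimate was 0 in FS019 and FS020, although Tgm4 was at 7.43 and 7.26 there. The secretory list summed to 174.4 and 153.0 normalized reads in FS019 and FS020. At the estimated percentages prostate RNA would give Krt18 values of 5.08, 3.49, 3.83, 3.50, -0.21 and -0.23 in FS015 to FS020. The measured values were 8.29, 5.62, 4.23, 4.32, 5.34 and 8.02. The gap was smallest in FS017 and FS018. Krt8 in FS017 was measured at 2.23, under the 2.71 that this percentage would give, and at 2.52 in FS019 and 3.34 in FS018 it was also near the floor. Krt20, a keratin of the gut and the umbrella cells of the bladder, was the keratin lower in prostate, at 1.49 to 3.41 (median 2.41) against 4.72 to 6.22 (median 5.97) in MEFs (difference -3.14, adjusted p = 4.6e-06).

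The basal keratins were also far higher in prostate. Krt5, the type II basal chain, had values from 10.51 to 11.18 (median 10.995) in prostate and from -1.47 to 3.41 (median 1.28) in MEFs (difference 9.77, adjusted p = 9.18e-09). Krt14, its type I partner, ranged from 8.66 to 9.44 (median 9.16) against 1.68 to 2.69 (difference 6.92, adjusted p = 2.01e-11), and Krt15 from 11.13 to 11.92 (median 11.62) against 1.53 to 3.43 (difference 9.10, adjusted p = 2.09e-11). Krt17, a basal keratin of appendages and injured epithelium, was under the floor in all MEF libraries, and prostate, by its mean on the log2 scale, was at least 47.6-fold higher than 3 reads per library. By the same bound Krt23 was at least 157.1-fold, Krt4 at least 131.7-fold, Krt78 at least 32.4-fold and Krt1 at least 7.5-fold higher in prostate. Krt17 was uneven among prostate samples, with 8.65 in FS012 and 8.57 in FS013 and 5.94 to 6.47 in the other 4. Krt75 (5.45 and 5.85) and Krt16 (3.61 and 4.25) were also highest in FS012 and FS013.

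**Figure D2:**
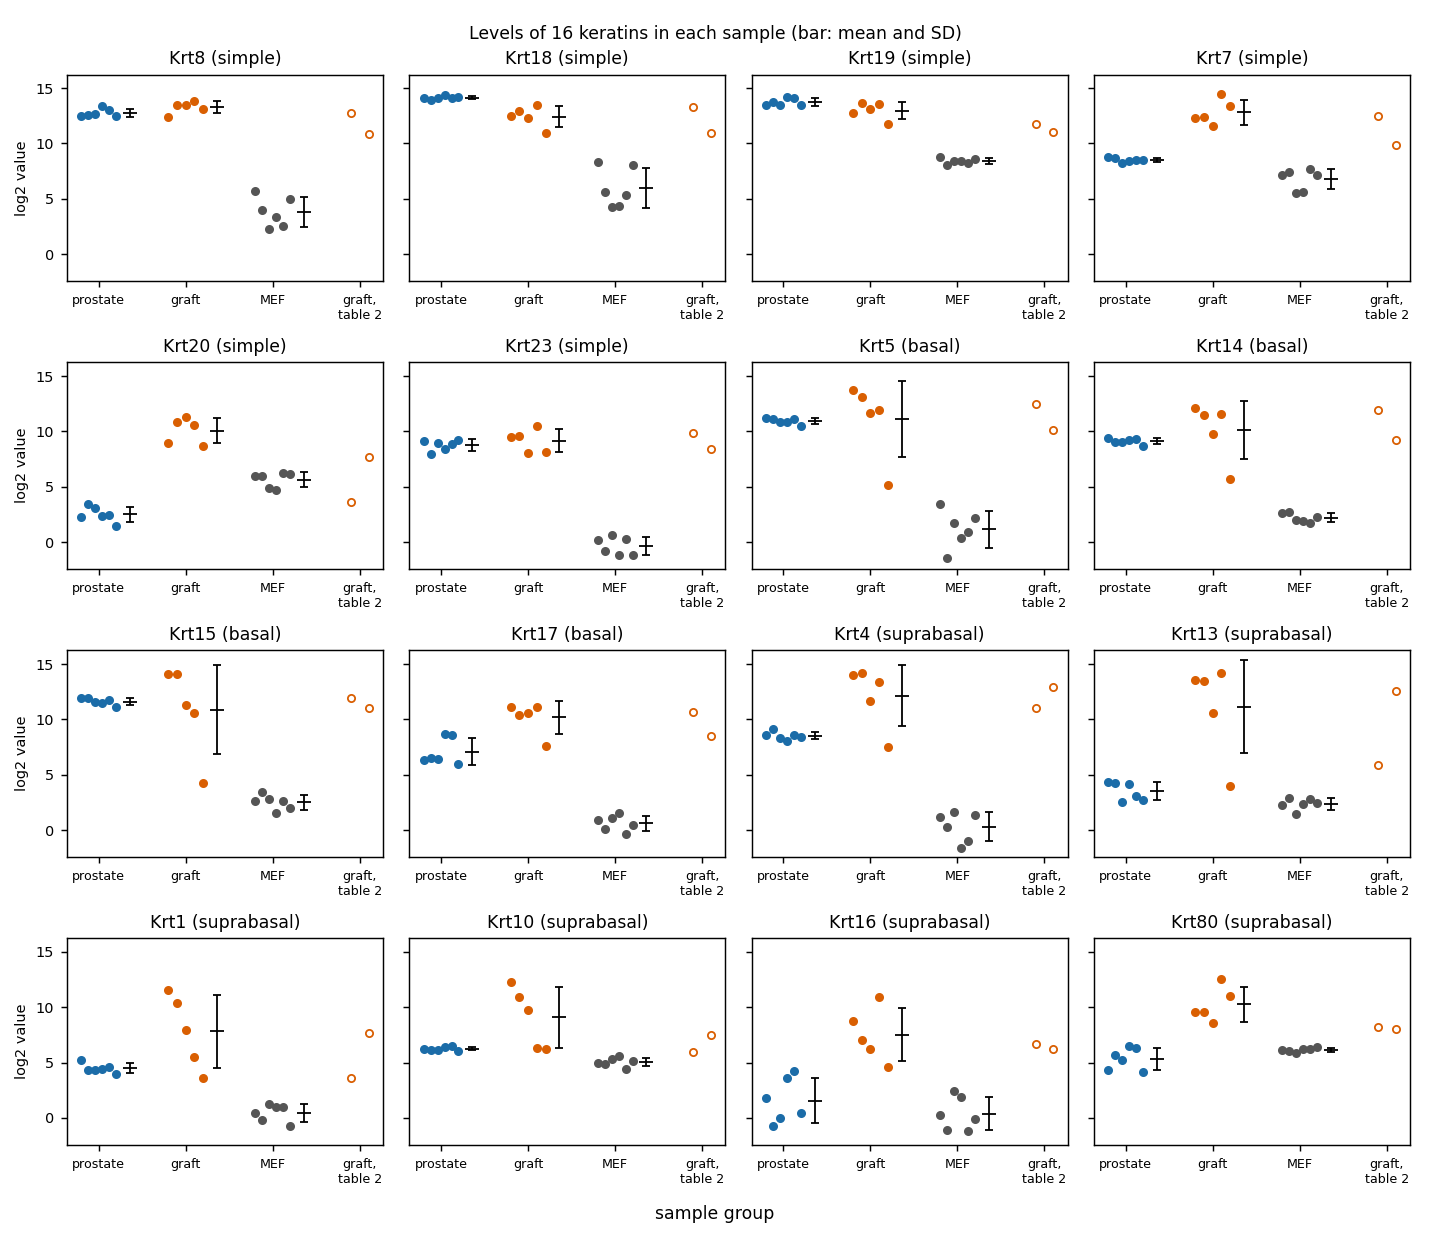
Log2 value (vertical axis) of 16 keratins in each sample of prostate (blue), first-table grafts (orange) and MEFs (grey), with mean and SD beside each group, and second-table grafts as open circles. Krt7, Krt20, Krt16 and Krt80 of the 5 grafts lie wholly above prostate, while the lowest graft in Krt5, Krt14 and Krt15 is FS008.

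The comparison of grafts with MEFs asks which keratins the reprogrammed tissue gained over its cells of origin. Of 21 keratins that passed the filter, 20 were called higher in the 5 grafts and 0 lower, against 29.9% of all genes called higher, 12% lower and 41.9% either way. The exception was the hair shaft keratin Krt84 (difference 2.74, adjusted p = 0.0686), which rose past the threshold without graft FS008. The keratins had a median log2 fold change of 7.35 (6.46 with 7 at their bound), and all genes tested 0.262. Here too a keratin high in a single group passes the filter through that group, so these counts are a description. All 6 simple and all 4 basal keratins were among those called, none of them overlapping between the groups. How often called genes of any kind overlapped was not computed. Against a floor of 3 reads per MEF library, the log2 mean of the 5 grafts was at least 1632-fold higher in Krt4, at least 413-fold in Krt17 and at least 205.4-fold in Krt23. Without FS008 the bound was 3632-fold for Krt4 and 641.8-fold for Krt17. The smallest called rise was in Krt10 (difference 4.04, adjusted p = 0.00447), which was lost with MEFs FS019 and FS020 alone (adjusted p = 0.0929).

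The comparison of prostate with grafts asks how far the keratin programme of the grafts matches the organ. Of 20 keratins that passed the filter, 12 were lower in prostate than in grafts and 1 was higher, against 23% of all genes called lower, 10.3% higher and 33.3% either way. Some passed it through the grafts, such as Krt16, Krt20, Krt42 and Krt79, with prostate means of 1.58, 2.51, 0.26 and 2.88. These counts are therefore a description. The median log2 difference, prostate minus graft, was -3.22 for the keratins and -0.11 for all genes tested. By class, 7 of 8 suprabasal, 2 of 6 simple and 1 of 4 basal keratins were lower in prostate. Of the 13 called keratins, 6 did not overlap between the groups. The share of all called genes without overlap was not computed, so this count is a description. Under quantile normalization of the same genes, the median of all genes moved from -0.11 to 0.119 and the calls over all genes from 23% lower and 10.3% higher to 16.3% lower and 19.8% higher, with 10 keratins lower and 1 higher and the calls of Krt1 and Krt10 lost.

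**Figure D3:**
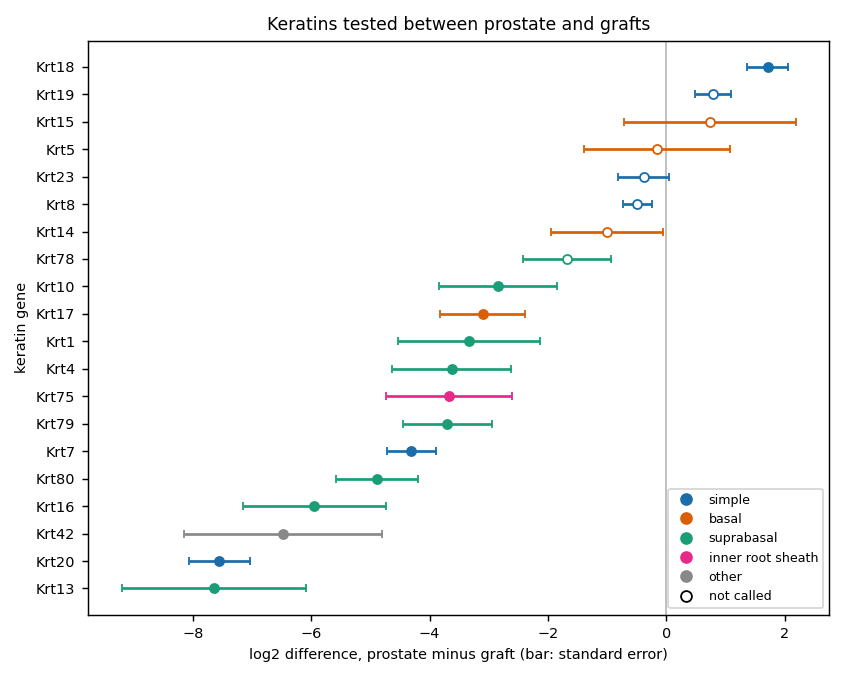
Log2 difference, prostate minus graft (horizontal axis, bars are standard errors), for the 20 keratins tested, coloured by class, with open circles for those not called. Krt18 is the single keratin called higher in prostate, and Krt13 and Krt20 show the largest differences in the other direction.

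Among simple keratins, the luminal pair was split between the tissues. Krt18, the type I chain, was 12.51, 12.93, 12.34, 13.44 and 10.91 in the 5 grafts (in the order FS002, FS003, FS005, FS007, FS008, which is kept from here on), all below the prostate range of 13.95 to 14.37. Prostate was 3.26-fold higher (difference 1.71 ± 0.35 SE, adjusted p = 0.00164). Krt8, its type II partner, was 12.43, 13.45, 13.48, 13.84 and 13.10 in the same grafts, overlapping prostate (difference -0.49 ± 0.25 SE, adjusted p = 0.109). Krt19, a type I chain without a fixed partner, was 12.72, 13.66, 13.09, 13.53 and 11.79 (difference 0.78, adjusted p = 0.0493), below the minimum fold change. Krt23 did not pass either (difference -0.39, adjusted p = 0.466), with graft values of 9.49, 9.59, 8.05, 10.52 and 8.16.

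Krt7 and Krt20 were higher in all 5 grafts than in any prostate sample. In prostate Krt20 was near the floor, above it in 4 of 6 samples, so its fold is uncertain. Krt7, a chain of ducts and urothelium, was 12.31, 12.42, 11.56, 14.49 and 13.41 in grafts and 8.26 to 8.74 in prostate, 19.9-fold higher in grafts (difference -4.31 ± 0.42 SE, adjusted p = 9.59e-06). Krt20 was 8.99, 10.82, 11.26, 10.55 and 8.68 against 1.49 to 3.41 (difference -7.55 ± 0.52 SE, adjusted p = 1.05e-06), 188-fold higher in grafts. Both are also known from tissues near the graft, and kidney markers (Kap, Umod, Slc34a1, Slc22a6, Slc12a1, Slc12a3, Aqp2, Miox), all 8 above the floor in each graft, summed to 83502, 1191, 175154, 7176 and 164412 normalized reads. The graft with the lowest kidney sum, FS003, had Krt7 at 12.42 and Krt20 at 10.82. The one with the highest kidney sum, FS005, had the highest Krt20 (11.26) and the lowest Krt7 (11.56). FS007, with the highest Krt7, had a kidney sum of 7176. FS008, next in Krt7 at 13.41, had a kidney sum of 164412 and the lowest Krt20 (8.68). Urothelial markers (Upk1a, Upk1b, Upk2, Upk3a, Upk3b) summed to 491.2 to 4231.8 in grafts and 4452.3 to 9700.4 in prostate. The part of urothelial and kidney tissue in these levels was not tested.

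The basal keratins of the grafts were uneven, with FS008 apart from the others. Krt5 was 13.73, 13.12, 11.67 and 11.90 in FS002, FS003, FS005 and FS007 and 5.13 in FS008, and the prostate range of 10.51 to 11.18 lies between (difference -0.16, adjusted p = 0.92). Krt14 showed the same spread, with 12.11, 11.51, 9.73 and 11.55 and then 5.73 in FS008 (difference -1.01, adjusted p = 0.383), and Krt15 with 14.08, 14.10, 11.32 and 10.59 and then 4.26 in FS008 (difference 0.74, adjusted p = 0.682). Without FS008 both Krt5 (difference -1.65, adjusted p = 0.0028) and Krt14 (difference -2.10, adjusted p = 0.000901) were called higher in grafts, so their place rests on that 1 graft. Krt17 was 11.12, 10.42, 10.54, 11.14 and 7.63 and was called higher in grafts (difference -3.10, adjusted p = 0.00345), although FS008 lay within the prostate range of 5.94 to 8.65.

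The suprabasal keratins of moist stratified linings were raised in most grafts. Krt13, the type I chain, was 13.53, 13.46, 10.60 and 14.18 in 4 grafts and 4.02 in FS008, against 2.51 to 4.38 in prostate (difference -7.64 ± 1.55 SE, adjusted p = 0.00156). Krt4, its type II partner, was 13.98, 14.19, 11.64 and 13.40 and 7.53 in FS008, against 8.09 to 9.10 (difference -3.63 ± 1.002 SE, adjusted p = 0.00947). Both values of FS008 were within or below the prostate range. Krt80, a type II chain of many epithelia, was 9.55, 9.59, 8.60, 12.57 and 11.001 and did not overlap with prostate at 4.13 to 6.54 (difference -4.89, adjusted p = 0.000134). Krt16, a keratin of activated epidermis, was 8.80, 7.09, 6.22, 10.89 and 4.61, above all prostate values of -0.69 to 4.25 (difference -5.95, adjusted p = 0.00154). Krt14 and Krt16 share 188 stretches of 50 bases, 11.4% of those in Krt14, and reads from these could be counted for either. Krt79, found in hair follicle ducts and sebaceous glands, was 8.26, 5.13, 6.37, 8.72 and 4.44 against 2.03 to 3.50 (difference -3.70, adjusted p = 0.0015).

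The epidermal pair Krt1 and Krt10 varied widely between single grafts. Krt1 was 11.60, 10.39, 7.94, 5.53 and 3.63 in these grafts, and Krt10 was 12.33, 10.91, 9.72, 6.31 and 6.22. Prostate ranged from 3.96 to 5.27 for Krt1 and from 6.09 to 6.49 for Krt10. FS002, FS003 and FS005 were above both ranges, FS007 above that of Krt1 only, and FS008 below that of Krt1 and inside that of Krt10. The calls (adjusted p = 0.0343 for Krt1 and 0.029 for Krt10) were lost without FS002 (0.0783 and 0.0622), FS003 (0.0839 and 0.0709) or FS005 (0.0605 and 0.0605) and under quantile normalization (0.0606 and 0.0531). Markers of cornified epidermis (Lor, Flg2, Ivl, Sprr1a, Sprr1b, Krtdap) summed to 4948, 5416, 1710, 2131 and 63.2 normalized reads in the same grafts and 93.8 to 239.4 in prostate, with 6, 6, 5, 5 and 3 of the 6 above the floor, and their part in these results was not tested.

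**Figure D4:**
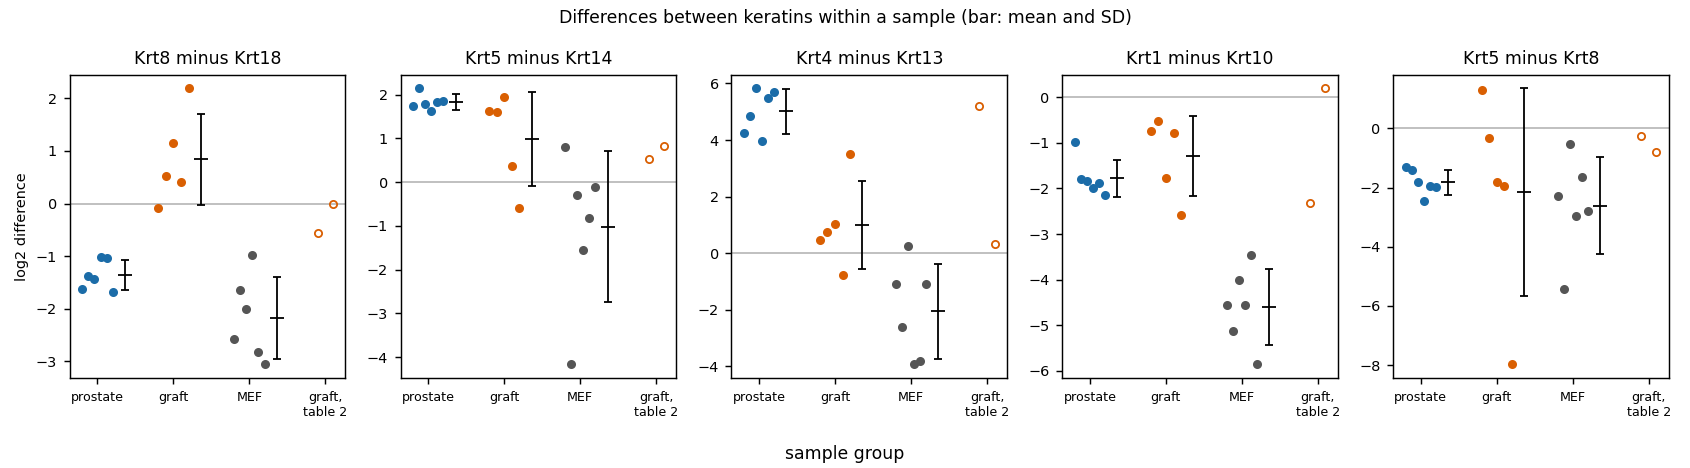
Log2 difference between keratins of the same sample (vertical axis), for prostate (blue), first-table grafts (orange) and MEFs (grey) with mean and SD, and second-table grafts as open circles. Krt8 minus Krt18 is below -1.02 in every prostate sample and above -0.08 in each of the 5 first-table grafts.

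For genes well above the floor, a difference between keratins within a sample does not depend on how that sample was scaled. Krt8 minus Krt18, the balance of the luminal pair, was -1.68 to -1.03 in prostate and -0.08, 0.52, 1.15, 0.41 and 2.19 in grafts, with no overlap (mean -1.36 ± 0.28, SD, n = 6, against 0.84 ± 0.87, SD, n = 5). An exact two-sided permutation test gave p = 0.00433, the smallest the design allows, and an adjusted p of 0.00917 over 36 such tests. Krt4 minus Krt13 was 3.96 to 5.83 in prostate and 0.45, 0.73, 1.04, -0.78 and 3.52 in grafts (means 5.01 ± 0.79 and 0.99 ± 1.57, exact permutation p = 0.00433, adjusted p = 0.00917). All 5 graft values lay below those of prostate. Krt13 was not above 10 reads in prostate FS011, FS013 and FS014 (2.51, 3.09 and 2.71), so their differences rest in part on values near the floor. Krt5 minus Krt14 was 1.63 to 2.14 in prostate and 1.63, 1.61, 1.94, 0.36 and -0.60 in grafts, which did not pass (exact permutation p = 0.0736, adjusted p = 0.0946). Neither did Krt1 minus Krt10 (adjusted p = 0.312) or Krt5 minus Krt8 (adjusted p = 0.848), and Krt5 minus Krt8, the basal against the luminal chain, was -7.97 in FS008, between -1.94 and -0.33 in FS003, FS005 and FS007, and above 0 in FS002 alone. MEF values of these differences rest on genes at or near the floor, and so in part does Krt8 minus Krt18, since Krt8 was not above 10 reads in FS017, FS018 and FS019. It was -3.05 to -0.98 in MEFs and overlapped with prostate (exact permutation p = 0.0541, adjusted p = 0.0779).

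**Figure D5:**
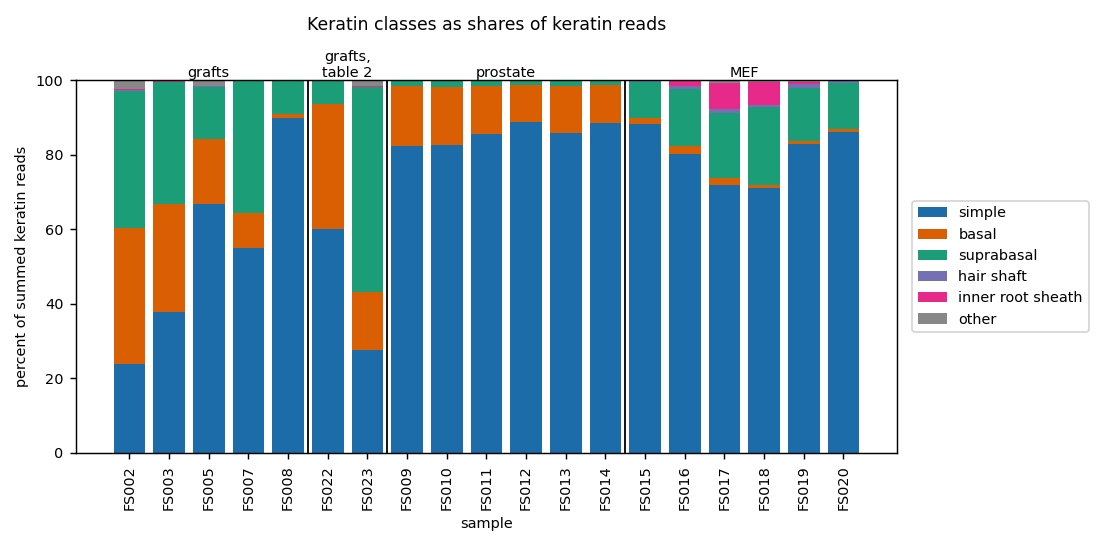
Share (percent, stacked to 100) of the summed keratin reads of each sample in 6 keratin classes, by group. Suprabasal keratins take 1.06% to 1.83% in prostate and 8.94% to 36.9% in the first-table grafts.

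As shares of all keratin reads, suprabasal keratins were 36.9%, 32.6%, 13.9%, 35.5% and 8.94% in the 5 grafts and 1.06% to 1.83% in prostate, with no overlap (exact permutation p = 0.00433, adjusted p = 0.00917). In FS008 most of this share was Krt80, at 7.12% of keratin reads, with Krt4 at 0.64% and Krt13 at 0.05%. MEFs had a suprabasal share of 9.58% to 20.9%. Simple keratins took 82.5% to 88.9% in prostate and 23.8%, 37.8%, 66.8%, 55.1% and 89.9% in grafts (exact permutation p = 0.0303, adjusted p = 0.0496), with FS008 above the prostate range and the other 4 below it. This call was lost when FS002, FS003, FS005 or FS007 was left out (adjusted p = 0.104, 0.1, 0.096 and 0.1). Basal keratins took 9.87% to 16.004% in prostate and 1.04% to 36.6% in grafts (exact permutation p = 0.329, adjusted p = 0.359). Type I chains were 77.1% to 80.4% of keratin reads in prostate and 56.2%, 55.6%, 53.0%, 46.1% and 22.8% in grafts, with no overlap (exact permutation p = 0.00433, adjusted p = 0.00917). Per transcript length the type I share was 81.03% to 84.3% in prostate and 32.4% to 63.5% in grafts. In FS008, where it was lowest, Krt8 made up 37.1% and Krt7, also type II, 20.3% of the keratin signal per transcript length. By reads the order was reversed, with Krt7 at 37.9% and Krt8 at 30.6%. The transcript lengths used were 4094 bases for Krt7 and 1805 for Krt8.

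Hair keratins appeared in one graft above the rest. In FS002, 9 of 13 hair shaft keratins (Krt31, Krt32, Krt34, Krt35, Krt36, Krt81, Krt83, Krt84 and Krt86) and 4 of 8 inner root sheath and companion layer keratins (Krt25, Krt27, Krt71 and Krt75) were above the value of 10 reads. The other 4 first-table grafts had 0 to 3 hair shaft keratins and 1 inner root sheath keratin above it, and prostate samples 0 hair shaft keratins. The value of 10 reads was lower in FS002 (2.91) than in prostate (3.30 to 3.76). Krt81 (2.91), Krt35 (3.04), Krt86 (3.37) and Krt31 (3.38) in FS002 were close to it. Krt31 was 3.26 in prostate FS012, under the value of 10 reads there (3.42). The inner root sheath keratin Krt71 was 5.67 in FS002 and at most 1.81 in the other first-table grafts, and Krt25 was 5.36 against at most 2.07. Hair shaft keratins together were 0.099% of the keratin reads of FS002. Several of these genes share sequence, for example 37.7% of the stretches of 50 bases in Krt81 with Krt86, and reads could be split among them. Krt75, a companion layer keratin, was above the floor in all 5 grafts at 7.66, 7.97, 6.33, 7.24 and 4.15. Krt42, a type I keratin, was 11.22, 7.58, 9.34, 4.07 and 1.42 in grafts and under the floor in prostate, and was called higher in grafts (adjusted p = 0.00658).

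Single grafts were set against the range of the 6 prostate samples, over keratins above 10 reads in that graft or in any prostate sample. Only 18 keratins were above 10 reads in any prostate sample. A keratin that enters through the graft alone is bound to lie high against prostate, so these counts are a description. Graft FS002 had 31 of 34 keratins above the prostate range and 3 below it. FS003 had 23 of 25 above and 1 below, FS005 20 of 25 above and 3 below, and FS007 18 of 22 above and 2 below. FS008 had 6 of 19 above, 6 inside and 7 below, the latter being Krt1, Krt4, Krt5, Krt14, Krt15, Krt18 and Krt19. Krt18 was below the prostate range in each of the 5. Among second-table grafts, on their own scale, FS022 had 12 of 18 above and 5 below, and FS023 12 of 22 above and 5 below. Across the 47 keratins, the Pearson correlation with the prostate mean was 0.824, 0.855, 0.845, 0.842 and 0.83 in the 5 grafts, 0.929 in FS022 and 0.798 in FS023. These describe the profile of genes, many of them at the floor in both, and genes are not independent replicates.

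The second-table grafts, iEpt only by the study's counts, differed from each other in the same keratins. FS022 had basal keratins at 12.51 (Krt5), 11.97 (Krt14) and 11.93 (Krt15), with Krt13 at 5.86 and Krt20 at 3.64. FS023 had Krt13 at 12.58 and Krt4 at 12.89, and suprabasal keratins were 55.1% of its keratin reads against 5.96% in FS022. Krt8 minus Krt18 was -0.56 in FS022 and -0.02 in FS023, and Krt12, the cornea keratin, was 6.65 in FS023 and under the floor in FS022. Krt222 was 8.62 in FS023 and 3.15 in FS022. Kidney markers summed to 32418 reads in FS022 and 2784 in FS023.

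Genes that anchor keratins to desmosomes and other junctions were measured beside them. Such a gene can also pass the filter through a single group, so the counts are a description. Of 16 desmosome and plakin genes, 13 were called higher and 2 lower in grafts than in MEFs (median log2 difference 4.88), against 29.9% and 12% of all genes. Of 14 tested in prostate against MEFs, 9 were higher and 2 lower (median 2.79), against 27.8% and 20.5% of all genes. The 2 lower were Plec and Dst, plakins that fibroblasts also make. Between prostate and grafts, 8 of 16 were lower in prostate and 1 higher (median -1.002), against 23% and 10.3% of all genes. Dsg3, a cadherin of stratified epithelium, had a mean of 0.88 in prostate and 9.67 in grafts (difference -8.79, adjusted p = 3.7e-06), while Dsp, which links keratins to every desmosome, was 12.62 in both (difference 0.002, adjusted p = 0.995). Of 13 other intermediate filament genes, Vim, the filament of fibroblasts, had means of 16.34 in MEFs, 12.77 in grafts and 11.33 in prostate, and 9 of the 13 were called lower in prostate than in grafts and 1 higher, against the same 23% and 10.3%. Krt6a and Krt6b, which are outside the 47 genes by name, were at 10.55 to 13.96 and 5.61 to 11.22 in grafts and -0.59 to 6.29 and 1.10 to 3.18 in prostate, and share 43.1% of the 50-base stretches of Krt6a.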

How the data were processed

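RNA-seq was performed on 19 samples. The submitters' processing notes name bcl2fastq 1.8.4, TopHat, Cufflinks, DESeq and the mouse assembly mm9, without their roles. The authors normalized counts with DESeq and deposited log2 values of 23284 genes in 1 table of 17 samples and another of 2. The log2 transformation is not given in the sources used here. Values from 11.5 to 15, put on a linear scale and fitted with a constant and an offset per sample, all lay within 0.05 of whole reads. Lower values carry added scatter, so a count test was not run. Normalized reads were obtained by inverting a variance-stabilizing form that uses the shared offset. The 5 grafts of the first table were tested against prostate and MEFs with limma 3.58.1 in R 4.3.3 (lmFit, eBayes with trend, 2 groups per fit, no pseudocount, linear mean of at least 10, Benjamini-Hochberg over all genes tested). On simulated data with 200 changed genes it recovered 182 in prostate versus MEF, 142 in graft versus MEF and 144 in prostate versus graft. False calls were 12, 16 and 22 among 14560, 16121 and 16353 genes. As a part of the calls made, they were above the 0.05 level in each comparison and largest in prostate versus graft. Pair differences and class shares were tested with exact permutation tests (scipy 1.17.1, Python 3.11.15). Nothing in the labels says that replicates are separate animals or cultures beyond being separate samples, so p-values measure the spread between these samples. Genes named in full were 16 keratins chosen by name plus, per comparison, the 5 largest changes in each direction without overlap, and Krt42, Krt75, Krt78, Krt84 and the hair keratins were named after their values were seen. The keratins, classes and lists were chosen with earlier results of these data known. Gene positions and transcript lengths are from GENCODE M1 on mm9. Alternatives changed the pseudocount, filter, scaling, samples in the fit, minimum fold change, transcript length and floor, and left out each graft in turn.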

Additional observations from a re-analysis of the deposited data

Results flagged for a closer look

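In groups of 5 or 6 samples, a value was marked where its gap to the nearest sample was large against the range of the group (Dixon's critical value), which chance gives in about 1 of 20 sets. Of 83 sets, 3 were marked and chance gives about 4.2. Graft FS008 was marked for Krt5, at 5.13 where the other first-table grafts ran from 11.67 to 13.73, and for Krt17, at 7.63 where they ran from 10.42 to 11.14. Krt1 minus Krt10 in prostate FS009 was -0.98 against -2.14 to -1.80 in the other prostate samples.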

How the results depend on the processing

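Without the filter on low values, 22 of 47 keratins were called between prostate and MEFs in place of 14 of 16. Calls over all genes went from 48.3% to 36.6%. Between prostate and grafts, 20 of 47 keratins were called in place of 13 of 20, and calls over all genes went from 33.3% to 26.3%. More keratins were called, but a smaller part of those tested. Class shares that differed between prostate and grafts fell from 5 to 3 with the MEF pairs averaged, an alternative chosen after seeing the data that enlarges the smallest p of the MEF tests in the same adjustment. The same averaging gave 14 keratins between prostate and MEFs and 21 between grafts and MEFs (Krt83 gained), and over all genes 7029 calls in place of 7026 and 5778 in place of 6757. With a pseudocount of 32, 2 MEF-based pair differences whose MEF values lie near the floor turned, Krt1 minus Krt10 to -0.019 and Krt5 minus Krt8 to -1.32 (prostate versus MEF). Leaving out each graft gave 11 to 16 keratins between prostate and grafts and 20 to 21 between grafts and MEFs, 4 to 6 class shares and 2 to 3 pair differences. The 16 came without FS008. Without a minimum fold change, calls over all genes rose from 7026 to 11772, 6757 to 10573 and 5440 to 9093. Quantile normalization changed the graft versus MEF calls from 29.9% higher and 12% lower to 18.8% and 22.6% of all genes, with 19 keratins higher and 0 lower. With MEFs FS019 and FS020 alone, exact tests cannot go below p = 0.0714 against 6 samples. Of the other alternatives of single genes, differences and shares, 726 kept direction and call, 56 lost the call and 10 gained it. No paired analysis was possible because the groups' numbers pair no samples. Depth limits the hair keratins, which lie near the floor.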
